A study of Mus musculus with 12 samples.

Results

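Satellite cells, the stem cells of skeletal muscle, carry a set of surface proteins by which they are recognised, held in their niche and kept quiet or set in motion. Transcripts of 10 genes were followed, which code for such surface proteins or, for Spry1, an intracellular inhibitor of signalling. They were taken by symbol from the deposited expression tables: Calcr, Cxcr4, Sdc4, Spry1, Cdh15, Vcam1, Ncam1, Cd34, Cd82 and Megf10. All 10 were found among the 30154 genes of the table, and all 10 were among the 15890 genes with enough counts to be tested.

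A resting satellite cell lies between the fibre membrane and the basal lamina, where adhesion molecules tie it to the fibre and receptors read signals from the matrix, the fibre and the vessels. After injury the cells leave quiescence, divide and either fuse or return to rest, and the surface genes change over this course. Calcr encodes the calcitonin receptor, a G protein-coupled receptor that responds to collagen V in the niche and helps hold the cells quiescent. Cxcr4 encodes the receptor for the chemokine CXCL12, Sdc4 the heparan sulphate proteoglycan syndecan-4, a co-receptor for growth factors, and Spry1 an intracellular inhibitor of receptor tyrosine kinase signalling that supports the return to rest. Cdh15 encodes M-cadherin, which joins the cell to the fibre, Vcam1 a ligand of the integrin VLA-4, and Ncam1 a neural cell adhesion molecule of myogenic and nerve-associated cells. Cd34 encodes a sialomucin of quiescent satellite cells and of vessels, Cd82 a tetraspanin, and Megf10 a receptor with EGF-like repeats that acts with Notch in myoblast proliferation.

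RNA was sequenced from muscle stem cells sorted by flow cytometry from the hind limb muscles of C57BL/6J mice aged 2 to 3 months, either wild type or with Sestrin1 and Sestrin2 knocked out. The Sestrins are stress-inducible proteins that restrain mTORC1. Cells came from muscle before injury (day 0) and at days 7 and 21 after it, with 2 libraries per genotype and day, 12 in all. The labels name neither the kind of injury, the surface proteins used in the sort, the kind of knockout allele, the sex, nor the number of animals behind a library, so p-values measure the spread between libraries, which may be technical. Total estimated counts ranged from 28396862 to 38950614 per library. Levels are given as CPM, counts relative to the scaled library size, group values as mean ± SD of 2 libraries, and differences as log2 fold changes ± standard error (SE).

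The targeted gene Sesn2 measured 75.1 and 84.4 CPM in the wild-type libraries of day 0 against 5.47 and 7.03 CPM in knockout, and 44.9 and 47.4 against 2.36 and 1.92 CPM on day 7. On day 21, replicates 1 and 2 with the wild-type label had 8.92 and 82.1 CPM, and those with the knockout label 9.86 and 108 CPM. Replicate 1 of the former and replicate 2 of the latter thus went against their labels. Day 21 is therefore given per library, by label, and as the mean over both labels, and the counts of called members that rest on it are also given without those 2 libraries. Sesn1 measured 70.4 and 68.6 CPM in wild type against 46.0 and 45.8 CPM in knockout on day 0, 84.0 and 67.9 against 28.4 and 22.4 CPM on day 7, and 43.7 and 78.3 (wild-type label) against 41.7 and 67.2 CPM (knockout label) on day 21.

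The cell type was checked with other satellite cell markers, none of them among the 10 genes. All 8 of 8 were detected in every library, and their summed level was 2440 to 3710 CPM. At day 0 the sum was led by Des, Chodl and Notch3, at means of 893, 603 and 479 CPM over both genotypes. Pax7 and Myf5 averaged 18.9 and 27.2 CPM there, so the sum says little of them. Pax7, the transcription factor that defines the cells, was present at 10.2 to 60.2 CPM, and Myf5, the myogenic factor, at 18.4 to 98.7 CPM. Markers of other cells were abundant as well. All 8 pericyte and smooth muscle genes summed to 10400 to 10500 CPM in wild type and 15500 to 15700 CPM in knockout at day 0, led by Acta2, and to 3690 to 3720 against 5540 to 5560 CPM at day 7. All 5 tenocyte genes, led by Fmod at days 0 and 21 and by Thbs4 at day 7, summed to 11300 to 11700 CPM at day 0, 7350 to 9380 CPM at day 7 and 9330 to 28200 CPM at day 21. The 9 fibro-adipogenic progenitor genes, led by Dcn, summed to 7940 to 8110 CPM in wild type and 6250 to 6260 CPM in knockout at day 0, to 3910 to 4790 CPM at day 7 and to 6280 to 11100 CPM at day 21.

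Schwann cell genes (8 of 8 found, led by Mbp) summed to 2730 to 2810 CPM in wild type and 3280 to 3350 CPM in knockout at day 0, to 363 to 502 CPM at day 7 and to 892 to 1350 CPM at day 21. Muscle fibre genes (8 of 8, led by Acta1) summed to 72.6 to 81.7 CPM in wild type and 50.5 to 53.6 CPM in knockout at day 0, 1510 to 3220 CPM at day 7 and 223 to 535 CPM at day 21. Endothelial genes (10 of 10, led by Esam) summed to 390 to 406 CPM in wild type and 490 to 512 CPM in knockout at day 0. The leukocyte sum of 1770 to 1800 CPM in wild type and 2900 to 2940 CPM in knockout at day 0 came from Lyz2, which alone averaged 2350 CPM over those 4 libraries. At day 0 Ptprc averaged 0.0694 CPM, Cd74 0.826 CPM and Csf1r 0.855 CPM, and at day 7 they averaged 4.13, 123 and 14.3 CPM, while Cd3e was at 0 in 7 of 12 libraries. Erythroid genes (5 of 5) summed to 877 to 883 CPM in wild type and 193 to 204 CPM in knockout at day 0, and skin epithelium genes (6 of 6) to 198 to 200 against 35.6 to 38.8 CPM. In bulk RNA, fewer cells of a type and less RNA per cell cannot be told apart.

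**Figure D1:**
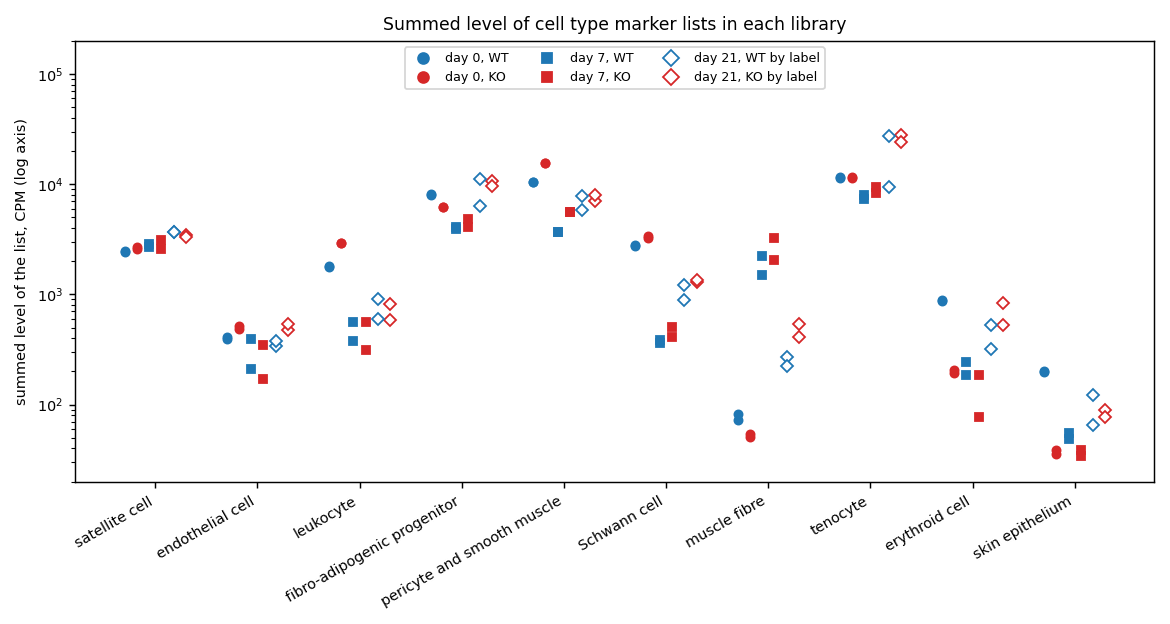
Summed CPM of each cell type's marker list in each of the 12 libraries, by day and label, on a log axis. Satellite cell sums lie between 2445 and 3127 CPM at days 0 and 7 and between 3297 and 3712 CPM at day 21. Muscle fibre, Schwann cell and several other sums also move with the day.

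The levels of the 10 genes were first ordered within the wild-type cells at day 0, in TPM, the length-corrected transcript share, which allows genes to be compared with each other. Cd82 was by far the most abundant at 702 ± 7.53 TPM (SD, n = 2). It was followed by Sdc4 at 180 ± 5.45, Cd34 at 153 ± 0.214, Vcam1 at 113 ± 1.89 and Spry1 at 108 ± 0.526 TPM. Ncam1 at 70.2 ± 0.284 and Cdh15 at 64.0 ± 3.84 TPM came next, and Cxcr4 at 17.9 ± 0.904, Calcr at 14.7 ± 0.798 and Megf10 at 11.04 ± 0.512 TPM came last. No neighbours in this order overlapped between their 2 libraries. Averaged over all 12 libraries, Cd82 stood at the 99th percentile of the genes tested, 6 others between the 89.6th and the 94.5th, and Megf10, Cxcr4 and Calcr at percentiles 68.2, 67.5 and 61.6.

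The order changed with injury and genotype. In knockout cells at day 0 Ncam1 stood behind Cd82 and Sdc4 at 102 ± 4.27 TPM, and Vcam1 ranked behind Spry1 and Cd34 at 52.5 ± 2.71 TPM. At day 7 Vcam1 at 162 ± 12.8 and Cdh15 at 141 ± 11.9 TPM ranked behind Cd82 in wild type, while Cd34 at 93.1 ± 15.9 and Sdc4 at 92.8 ± 3.75 TPM overlapped. In knockout at day 7 Vcam1 at 161 ± 3.77 and Cdh15 at 153 ± 15.2 TPM overlapped too. Over the 4 libraries of day 21 Sdc4 was second again at 280 ± 39.9 TPM, behind Cd82 at 785 ± 185 TPM (SD, n = 4), and its libraries overlapped with those of Vcam1 at 225 ± 57.9 TPM. At day 21 the libraries of neighbours in the order overlapped except between Cd82 and Sdc4 and between Cdh15 and Megf10.

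**Figure D2:**
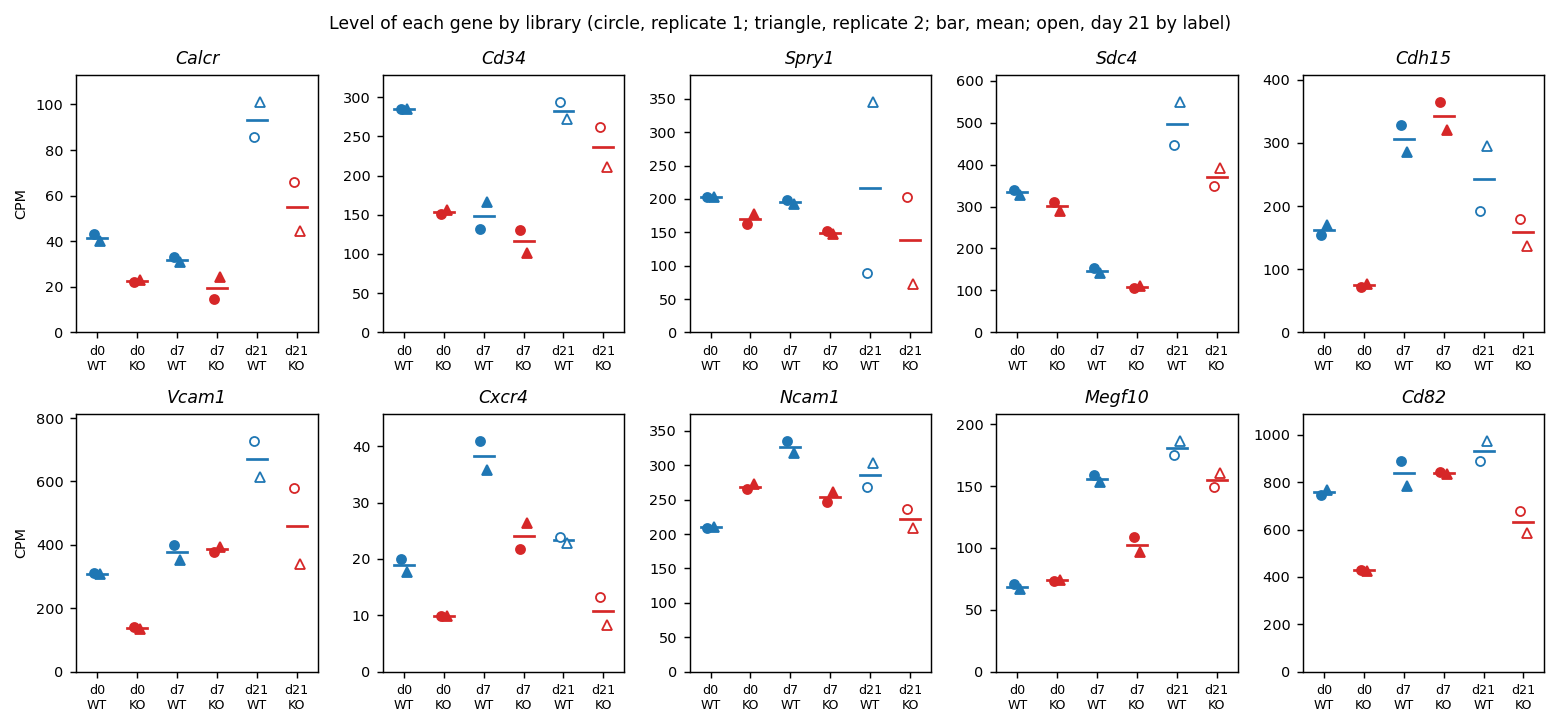
CPM of each of the 10 genes in each of the 12 libraries, by day and label, 1 panel a gene, with a circle for replicate 1, a triangle for replicate 2 and a bar for the group mean. Wild-type and knockout libraries do not overlap at day 0 in any of the 10 panels, and at day 21 Spry1 is spread from 72.8 to 345 CPM.

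The first comparison asked how loss of the Sestrins changes these genes in cells of uninjured muscle. At day 0, 7 of the 10 genes differed between genotypes: Vcam1, Cdh15, Cxcr4, Cd34, Calcr and Cd82 were lower in knockout cells, by 1.77-fold to 2.24-fold, and Ncam1 was higher by 1.28-fold. Spry1, Sdc4 and Megf10 were not called. Of all genes tested 27.4% were called in this comparison, 12.6% as lower and 14.8% as higher. The median log2 fold change was -0.86 over the 10 genes and 0.00 over all genes tested. The knockout and wild-type libraries did not overlap for any of the 10 genes, which 75.1% of the genes tested also showed, with 2 libraries against 2.

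Among the receptors, Calcr was at 43.2 and 40.0 CPM in wild type and at 22.1 and 22.9 CPM in knockout. Both knockout libraries lay near the middle of the way from 0 to the wild-type level, and the log2 fold change was -0.89 ± 0.23 (edgeR adjusted p = 0.0181). Cxcr4 showed the same at a lower level, with 19.9 and 17.8 CPM in wild type against 9.94 and 9.83 CPM in knockout (log2 fold change -0.93 ± 0.20, edgeR adjusted p = 0.00793). The co-receptor gene Sdc4 differed little: it was at 340 and 329 CPM in wild type and 311 and 290.0 CPM in knockout, and its log2 fold change of -0.15 ± 0.11 had a 95% interval from -0.40 to 0.09 (edgeR adjusted p = 0.331). The signalling inhibitor Spry1 was at 203 and 204 CPM in wild type and 162 and 177 CPM in knockout. Its libraries did not overlap, but the fit shares 1 spread over all days and Spry1 was scattered at day 21, so that the interval of its log2 fold change of -0.26 ± 0.60 ran from -1.65 to 1.13. Fitted on the day 0 libraries alone, Spry1 was called lower in knockout with a log2 fold change of -0.28 (edgeR adjusted p = 0.00402), in a fit that called 9 of the 10 genes and 49.5% of all genes.

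The adhesion genes parted ways. Cdh15, which codes for the cadherin of the contact with the fibre, was at 155 and 170 CPM in wild type and 72.5 and 76.5 CPM in knockout, 2.18-fold lower (log2 fold change -1.13 ± 0.19, edgeR adjusted p = 0.00300). Vcam1 had the largest difference of the 10, from 311 and 307 CPM in wild type to 142 and 134 CPM in knockout, 2.24-fold lower (log2 fold change -1.16 ± 0.20, edgeR adjusted p = 0.00318). Ncam1 went the other way and was at 208 and 211 CPM in wild type and 265 and 273 CPM in knockout (log2 fold change 0.36 ± 0.094, edgeR adjusted p = 0.0184). Among the quiescence-associated and other surface genes, Cd34 was at 285 CPM in both wild-type libraries and at 151 and 156 CPM in knockout (log2 fold change -0.89 ± 0.15, edgeR adjusted p = 0.00256). Cd82 was at 745 and 768 CPM against 431 and 424 CPM, the smallest adjusted p of the set (log2 fold change -0.83 ± 0.10, edgeR adjusted p = 0.000676). Megf10 was at 70.5 and 66.6 CPM in wild type and 73.6 and 74.4 CPM in knockout, with an interval of -0.09 to 0.31 around its log2 fold change of 0.11.

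Of 8 satellite cell markers outside the set, 4 were lower, 0 were higher and 4 were not called at day 0, while their summed level was 2440 to 2480 CPM in wild type and 2580 to 2710 CPM in knockout. Pax7 had a log2 fold change of -1.10 ± 0.28 (edgeR adjusted p = 0.0161), Myf5 of -0.94 ± 0.15 (edgeR adjusted p = 0.00234), Chodl of -0.81 and Fgfr4 of -0.53. The Notch receptor gene Notch3 at 1.03, the myogenic factor gene Myod1 at 0.51, the structural gene Des at 0.37 and the integrin gene Itga7 at 0.08 were not called. With the genotype also moved 4 of 8 pericyte and smooth muscle genes and 2 of 8 Schwann cell genes, which were higher in knockout, and 5 of 5 erythroid, 6 of 6 skin epithelium, 3 of 8 muscle fibre and 2 of 9 fibro-adipogenic genes, which were lower. The part of these shifts in the members' differences was not tested. Leaving out replicate 2 of the knockout or replicate 1 of the wild type at day 0 reduced the called members from 7 to 4 and the share of all genes called from 27.4% to 10.1% and 10.9%, and Calcr and Ncam1 lost their call without any 1 of the 4 day 0 libraries, with adjusted p of 0.0649 to 0.0978 for Calcr and 0.0647 to 0.106 for Ncam1 (edgeR).

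**Figure D3:**
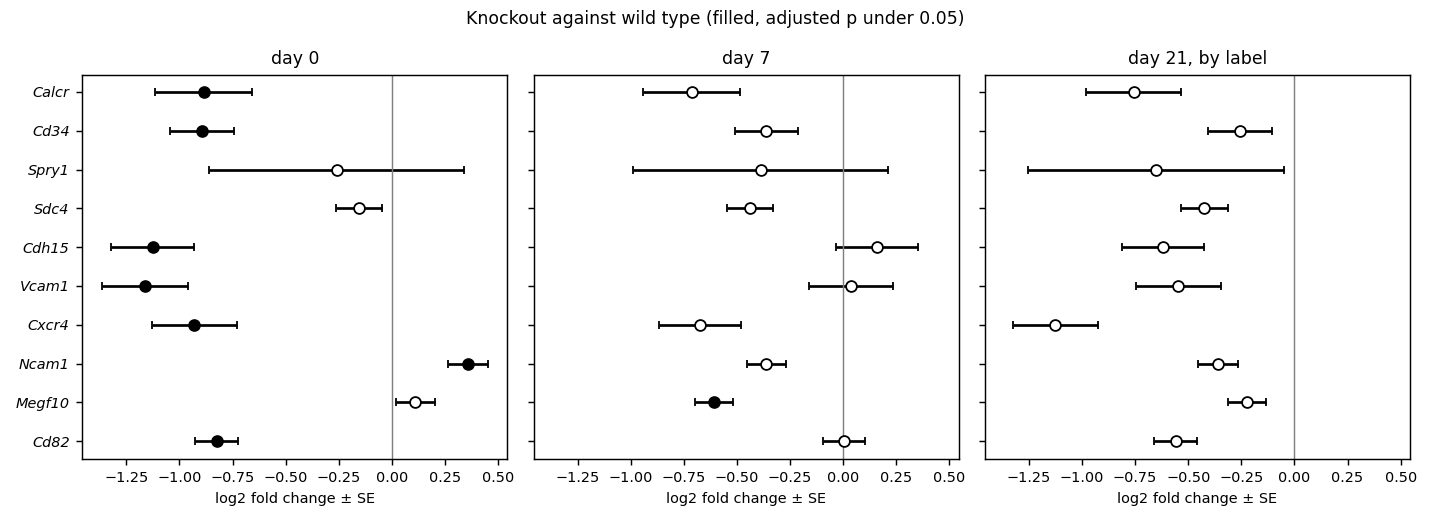
Log2 fold change of knockout against wild type for each of the 10 genes at days 0, 7 and 21, the last by label. Points are edgeR estimates, bars are SE and filled points have an adjusted p under 0.05. At day 0, 6 filled points lie below 0 and Ncam1 above it, and at day 7 Megf10 is the filled point.

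At day 7 fewer of the 10 genes were called between the genotypes in the fit of all libraries. Megf10 was lower in knockout cells and was called, 1 of the 10 genes, while 1.76% of all genes tested were called and 0.68% as lower. Megf10 was at 159 and 153 CPM in wild type and 109 and 96.3 CPM in knockout, a log2 fold change of -0.61 ± 0.09 (edgeR adjusted p = 0.0140). The knockout libraries lay below the wild-type ones without overlap for 7 of the 10 genes, a separation found in 47.4% of all genes in either direction. The median log2 fold change of the 10 was -0.38, against 0.00 over all genes.

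Calcr, Cxcr4, Sdc4, Ncam1 and Spry1 had lower levels in both knockout libraries at day 7 but did not pass the test in the fit of all libraries. Calcr was at 32.9 and 30.7 CPM in wild type and 14.7 and 24.1 CPM in knockout, and Cxcr4 at 40.8 and 35.8 against 21.7 and 26.4 CPM. Their log2 fold changes were -0.71 ± 0.23 and -0.67 ± 0.19, with edgeR adjusted p of 0.180 and 0.133. Sdc4 was at 153 and 142 CPM in wild type and 107 and 111 CPM in knockout (log2 fold change -0.44 ± 0.11, edgeR adjusted p = 0.0822), and Ncam1 at 335 and 318 against 246 and 262 CPM (log2 fold change -0.36 ± 0.094, edgeR adjusted p = 0.0914). Spry1 was at 199 and 192 CPM in wild type and 152 and 147 CPM in knockout. None of these 5 genes had overlapping libraries.

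Fitted without the 2 libraries of day 21 that go against their labels, 5 of the 10 genes were called at day 7 in place of 1, and 6.9% of all genes in place of 1.76%. A fit to the 8 libraries of days 0 and 7 also called 5, beside 7.46% of all genes: Megf10, Spry1 (edgeR adjusted p = 0.00689), Sdc4 (0.00500), Cxcr4 (0.0154) and Ncam1 (0.00799), all of them lower in knockout. In contrast to day 0, Cdh15, Vcam1 and Cd82 had estimates near 0. Cdh15 was at 328 and 286 CPM in wild type and 365 and 320 CPM in knockout, with an interval of the log2 fold change from -0.27 to 0.58. Vcam1 was at 401 and 352 against 378 and 395 CPM, with an interval from -0.41 to 0.48. Cd82 was at 891 and 783 against 844 and 835 CPM, with an interval from -0.22 to 0.23. The genotypes overlapped for all 3, and differences of the size seen at day 0 lie outside these intervals. Cd34 was at 132 and 166 CPM in wild type and 131 and 101 CPM in knockout (log2 fold change -0.36 ± 0.15, edgeR adjusted p = 0.301). Of the marker lists, 2 of 8 pericyte and smooth muscle genes were higher and 2 of 9 fibro-adipogenic genes lower in knockout at day 7, and their part was not tested. The call of Megf10 was lost without replicate 2 of the knockout or without either wild-type library of day 7, with adjusted p of 0.0629 to 0.150 (edgeR).

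At day 21 no gene of the set was called between the labels by edgeR, where 0.0126% of all genes were. At an unadjusted p under 0.05 there were 8 of 10, beside 14.2% of all genes. The Wald test of DESeq2 called 6 of the 10 and 2.96% of all genes, limma on the batch-corrected log values 2 and 0.808%, and limma on log2(TPM + 1) 0 and 0.0143%. All 10 fitted changes were below 0, with a median of -0.55 against 0.00 over all genes, and 9 of 10 genes had no overlap between the labels, with those labelled knockout lower, where 38% of all genes had none in either direction. Cxcr4 measured 24.0 and 22.9 CPM in replicates 1 and 2 with the wild-type label, against 13.2 and 8.30 CPM in those with the knockout label (log2 fold change -1.13 ± 0.20, edgeR adjusted p = 0.0814). Cd82 measured 887 and 972 CPM under the wild-type label and 677 and 586 CPM under the knockout label (log2 fold change -0.56 ± 0.10, edgeR adjusted p = 0.0845). Both genes thus followed the labels in all 4 libraries, including the 2 in which Sesn2 did not. Summed marker levels also differed by label without overlap: muscle fibre genes were at 409 and 535 CPM under the knockout label against 269 and 224 CPM under the wild-type label. Endothelial genes were at 472 and 540 against 340 and 378 CPM, and Schwann cell genes at 1288 and 1345 against 1215 and 892 CPM. Other satellite cell genes went the other way, at 3423 and 3297 against 3712 and 3644 CPM. The part of these lists in the members' differences was not tested.

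Spry1 did not follow the labels. Its 4 values, in the same order of libraries, were 88.8 and 345 CPM under the wild-type label and 203 and 72.8 CPM under the knockout label. The highest and lowest of these differed more than any values of the gene at days 0 and 7, which lay between 147 and 204 CPM. The 2 low libraries were the 2 whose Sesn2 went against their labels. In the fit without those 2 libraries, which leaves 1 library a label at day 21 and assumes that it varies like the other groups, 6 of the 10 genes were called in place of 0, beside 7.29% of all genes. Leaving out replicate 1 labelled wild type alone gave 5, beside 5.24% of all genes, and leaving out replicate 1 labelled knockout gave 3, beside 1.65%.

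Across the 3 days, 4 of the 10 genes were lower in both libraries with the knockout label than in both with the wild-type label of the same day: Calcr, Cd34, Sdc4 and Cxcr4. Of all genes tested, 3.42% were lower on every day in this way and 3.21% higher. Without the 2 doubted libraries, which leaves 1 library a label at day 21, Spry1 joined these and the count was 5 of 10, beside 6.56% of all genes lower and 6.07% higher. On day 21 Cd34 measured 294 and 272 CPM under the wild-type label and 262 and 212 CPM under the knockout label. Sdc4 was at 446 and 549 against 350 and 391 CPM, and Calcr at 85.6 and 101 against 65.8 and 44.6 CPM.

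The second question was how the genes move during repair. In wild-type cells 6 of the 10 changed from day 0 to day 7, where 47% of all genes did, 25.8% rising and 21.2% falling: Megf10, Cxcr4, Cdh15 and Ncam1 rose, and Sdc4 and Cd34 fell. Megf10, the EGF-repeat receptor of proliferating myoblasts, rose 2.28-fold from 68.6 ± 2.72 to 156 ± 4.07 CPM (log2 fold change 1.19 ± 0.091, edgeR adjusted p = 6.06e-06). Cxcr4 rose 2.04-fold from 18.8 ± 1.54 to 38.3 ± 3.53 CPM (1.03 ± 0.20 on the log2 scale, edgeR adjusted p = 0.00172) and Cdh15 1.89-fold from 163 ± 10.9 to 307 ± 29.5 CPM (0.92 ± 0.19, edgeR adjusted p = 0.00319). Ncam1 rose 1.56-fold from 210 ± 1.81 to 326 ± 11.7 CPM (0.64 ± 0.094, edgeR adjusted p = 0.000354). The genes that fell were the growth factor co-receptor and the sialomucin. Sdc4 fell 2.27-fold from 334 ± 7.87 to 147 ± 7.79 CPM (log2 fold change -1.18 ± 0.11, edgeR adjusted p = 2.02e-05), and Cd34 1.91-fold from 285 ± 0.0556 to 149 ± 23.7 CPM (-0.94 ± 0.15, edgeR adjusted p = 0.00059). Calcr at 41.6 ± 2.21 and 31.8 ± 1.55 CPM, Vcam1 at 309 ± 3.07 and 376 ± 34.5 CPM and Cd82 at 757 ± 16.3 and 837 ± 76.4 CPM did not pass the test, nor did Spry1. No member had overlapping libraries between these days, and neither had 79.6% of all genes. Markers of other cells moved over the same days: 7 of 8 muscle fibre genes and 5 of 7 tested leukocyte genes rose, and 6 of 8 Schwann cell, 5 of 5 erythroid and 5 of 6 skin epithelium genes fell. Of 9 fibro-adipogenic genes 4 rose and 3 fell, and of 8 pericyte and smooth muscle genes 4 fell and 2 rose, Rgs5 by 0.89 and Abcc9 by 1.73 on the log2 scale. Lyz2, a leukocyte gene, fell (log2 fold change -2.68), and 1 endothelial and 1 tenocyte gene fell and 1 Schwann cell gene rose. Their part in the members' changes was not tested.

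In knockout cells 7 of the 10 changed, 5 rising and 2 falling, where 46.9% of all genes did, 24.7% rising and 22.2% falling. Without overlap between the days were 9 of the 10 and 76.1% of all genes. In these cells 7 of 8 muscle fibre and 6 of 7 leukocyte genes rose over the same days, and 6 of 8 Schwann cell, 5 of 8 pericyte and smooth muscle and 4 of 10 endothelial genes fell. Of 9 fibro-adipogenic genes 4 rose and 3 fell, 1 pericyte and 1 Schwann cell gene rose, and the leukocyte gene Lyz2 fell by 3.21 on the log2 scale. Of 8 other satellite cell markers 4 rose and 1 fell. Myf5, Pax7, Itga7 and Fgfr4 had log2 fold changes of 2.27, 1.04, 0.98 and 0.73, and Notch3 of -1.8. Of 5 tenocyte genes 2 rose, 1 skin epithelium gene rose and 1 erythroid gene fell. The part of these lists was not tested. Cdh15 rose 4.60-fold from 74.5 ± 2.79 to 343 ± 31.2 CPM (log2 fold change 2.20 ± 0.20, edgeR adjusted p = 1.45e-05). Vcam1 rose 2.80-fold from 138 ± 5.31 to 386 ± 12.2 CPM (1.49 ± 0.20, edgeR adjusted p = 0.000226) and Cxcr4 2.43-fold from 9.89 ± 0.0770 to 24.1 ± 3.31 CPM (1.28 ± 0.20, edgeR adjusted p = 0.000463). Cd82 rose 1.97-fold from 427 ± 4.75 to 840 ± 6.16 CPM (0.98 ± 0.10, edgeR adjusted p = 3.1e-05). Each of these 4 genes began in knockout below its wild-type level. Megf10 rose 1.38-fold to 102 ± 8.66 CPM, Sdc4 fell 2.77-fold to 109 ± 3.01 CPM and Cd34 fell 1.32-fold to 116 ± 20.8 CPM. The last had an edgeR adjusted p of 0.0464 that became 0.0535 with the replicate number as a block. Cd34 kept this call in 13 of 23 alternative settings. Ncam1 was at 269 ± 5.53 CPM at day 0 and 254 ± 10.8 CPM at day 7, and its log2 fold change of -0.08 had an interval from -0.29 to 0.13.

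**Figure D4:**
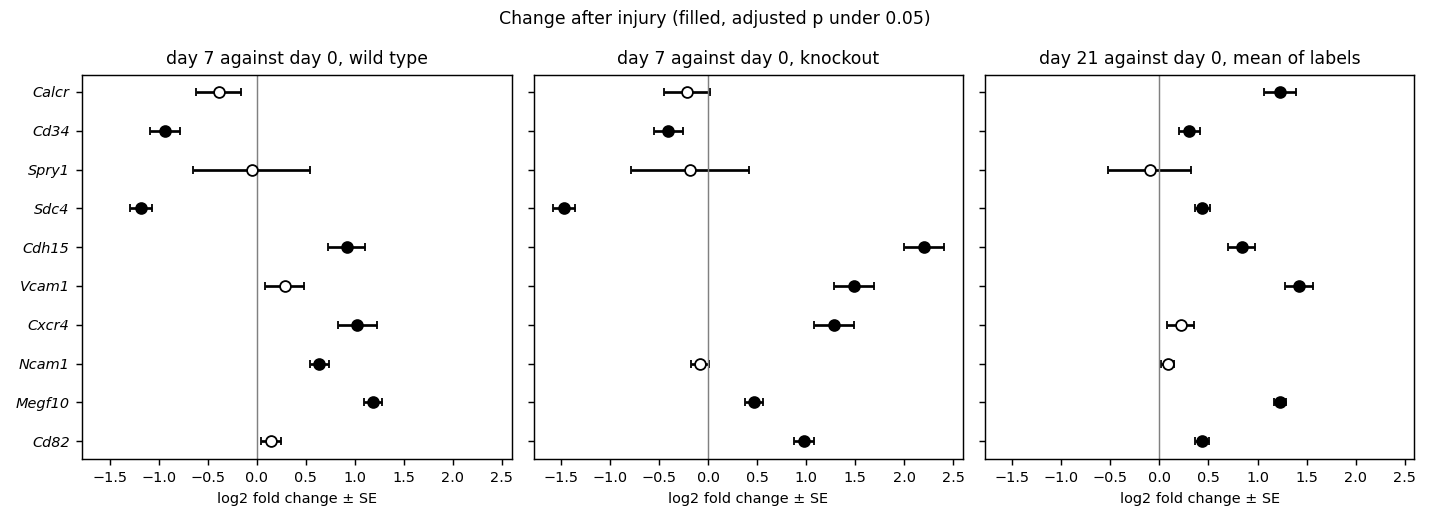
Log2 fold change of each of the 10 genes from day 0 to day 7 in wild-type cells and in knockout cells, and from day 0 to day 21 over the mean of both labels, with SE bars and filled points for an adjusted p under 0.05 (edgeR). Cdh15, Vcam1 and Cd82 lie further to the right in knockout, and Ncam1 and Megf10 further to the left, and 7 filled points lie above 0 at day 21.

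Whether the response differed between genotypes was tested as an interaction, the knockout change minus the wild-type change. It was called for 5 of the 10 genes and for 13.5% of all genes tested, with 3 of the 10 above 0, as were 6.08% of all genes, and 2 below, as were 7.39%. The difference was above 0 for Cdh15 at 1.28 ± 0.27 on the log2 scale (edgeR adjusted p = 0.0168), for Vcam1 at 1.20 ± 0.28 (0.0243) and for Cd82 at 0.83 ± 0.14 (0.00728). Of these 3 genes, Cdh15 alone was called in wild type as well as in knockout. The difference was below 0 for Ncam1, which rose in wild type and was not called in knockout, at -0.72 ± 0.13 (edgeR adjusted p = 0.00947), and for Megf10, which rose in both, at -0.72 ± 0.13 (0.00831). Cdh15, Vcam1 and Cd82 are the genes that were low in knockout at day 0 and near the wild-type level at day 7, and since the day 0 libraries enter both the genotype comparison and the interaction, the 2 results are not independent. Calcr (0.17 ± 0.32), Cd34 (0.53 ± 0.21), Sdc4 (-0.28 ± 0.16) and Cxcr4 (0.26 ± 0.28) were not called, and Cd34 had an interval from 0.06 to 1.00. The call of Vcam1 was lost without any 1 of the 8 libraries of days 0 and 7 (edgeR adjusted p 0.0509 to 0.103) and that of Cdh15 without any of 4 of them (0.0577 to 0.0659). The interaction was also above 0 and called for 3 of 8 muscle fibre genes, which rose in both genotypes, and for 3 of 6 skin epithelium genes, and their part in these results was not tested. Of the latter, Scd3 and Mgst1 fell in wild type, by log2 fold changes of -4.66 and -0.89, and were not called in knockout.

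For a pair of genes at the ends of the day 7 response in knockout, Cdh15 (highest rise) and Sdc4 (strongest fall), the promoter is shown from 250 bases before to 50 bases after the RefSeq start on GRCm38.p6, so that the E-boxes (CANNTG, the letters bound by basic helix-loop-helix factors such as the myogenic ones) can be seen. The Cdh15 sequence lies at chr8:122848124-122848423 on the plus strand and the Sdc4 sequence at chr2:164443139-164443438 on the minus strand. The RefSeq starts lie 408 bases (Cdh15) and 699 bases (Sdc4) downstream of the outermost gene starts in GENCODE M21, so the windows shown lie inside those gene models. Capitals mark E-boxes.
Cdh15: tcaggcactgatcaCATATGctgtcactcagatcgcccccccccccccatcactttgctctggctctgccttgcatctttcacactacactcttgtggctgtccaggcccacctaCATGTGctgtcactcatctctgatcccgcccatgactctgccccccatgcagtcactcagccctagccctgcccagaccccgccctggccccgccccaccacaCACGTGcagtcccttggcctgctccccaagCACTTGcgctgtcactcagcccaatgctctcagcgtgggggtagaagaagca
Sdc4: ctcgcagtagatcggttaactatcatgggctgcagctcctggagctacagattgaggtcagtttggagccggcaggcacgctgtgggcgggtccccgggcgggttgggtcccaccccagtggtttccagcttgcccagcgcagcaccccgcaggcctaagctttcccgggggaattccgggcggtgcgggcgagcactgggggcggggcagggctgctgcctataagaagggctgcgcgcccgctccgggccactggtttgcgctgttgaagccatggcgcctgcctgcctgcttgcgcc
Cdh15 has 4 E-boxes in this window and Sdc4 has 0.

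RefSeq promoters were matched for 7 of the 10 genes, 11 promoters in all, and searched on both strands. CANNTG was found in 6 of 11 and in 72.3% of all 32851 promoters of that length. CAGCTG, the form preferred by myogenic factors and a subset of CANNTG, was found in 0 of 11 against 16.3%. TGGGAA, the core bound by RBPJ of the Notch pathway, was found in 1 of 11, a Cd82 promoter, against 25.6%. TGACTCA, the AP-1 letters, was found in 0 of 11 against 5.2%. Spry1 had 2 E-boxes, 3 of the 4 Cd82 promoters and 1 of the 2 Calcr promoters had 1 each, and the Cxcr4 and Cd34 windows had 0. Matches describe letters only.

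At day 21 the genes were compared with day 0 and day 7 over the mean of both labels, which takes in all 4 libraries whatever their label. For Spry1 the direction against day 0 still changed without the 2 libraries that go against their labels, as given below. Against day 0, 7 of the 10 rose and 0 fell, where 45.9% of all genes were called, 25% as higher and 20.8% as lower. Vcam1 rose 2.69-fold (log2 fold change 1.43 ± 0.14, edgeR adjusted p = 4.38e-05), reaching 339, 579, 615 and 726 CPM in the 4 libraries. Megf10 rose 2.35-fold (1.23 ± 0.065, edgeR adjusted p = 1.13e-06) with 149 to 186 CPM, and Calcr 2.34-fold (1.23 ± 0.16, edgeR adjusted p = 0.000205) with 44.6 to 101 CPM. For these 3 genes and Sdc4 every day 21 library lay above every day 0 library, and 30.6% of all genes did not overlap between these days in either direction. Sdc4, Cdh15, Cd82 and Cd34 rose by 1.24-fold to 1.79-fold. For Cd34, which rose least, the mean under the wild-type label was 285 CPM on day 0 and 283 CPM on day 21, and under the knockout label 154 and 237 CPM. Cxcr4 at 8.30 to 24.0 CPM, Ncam1 at 209 to 303 CPM and Spry1 at 72.8 to 345 CPM did not pass. Without the 2 day 21 libraries that go against their labels, 10 of 10 were called, beside 41.2% of all genes, with Spry1 at a log2 fold change of 0.51 (edgeR adjusted p = 0.000102) in place of -0.10. Among the marker lists, 6 of 8 other satellite cell genes, 7 of 8 muscle fibre, 6 of 9 fibro-adipogenic and 4 of 5 tenocyte genes were higher and 6 of 8 Schwann cell genes and 1 fibro-adipogenic gene lower at day 21 than at day 0. Of 7 leukocyte genes 4 were higher, among them Cd74 by 5.79 on the log2 scale, and Lyz2 was lower at -1.76. Of 8 pericyte and smooth muscle genes 2 were higher and 3 lower, and of 6 skin epithelium genes 3 and 2. Of 10 endothelial genes 2 were higher and 2 lower. The summed tenocyte level was 9333 CPM in replicate 2 labelled wild type, below the 11260 to 11670 CPM of day 0, and 23960 to 28200 CPM in the other day 21 libraries. The summed fibro-adipogenic level was 6285 CPM in that library and 9645 to 11110 CPM in the others of day 21. The part of these lists in the members' changes was not tested.

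From day 7 to day 21, 8 of the 10 changed, where 56.8% of all genes did, 28.4% each way. This comparison shares the day 21 libraries with the one before. Sdc4 rose 3.40-fold (log2 fold change 1.76 ± 0.080, edgeR adjusted p = 1.87e-07), Calcr 2.89-fold (1.53 ± 0.16, edgeR adjusted p = 2.61e-05) and Cd34 1.97-fold (0.98 ± 0.11, edgeR adjusted p = 2.65e-05). Calcr and Cd34 are genes of the quiescent state, and all 3 had their lowest wild-type mean at day 7. For these 3 genes, and for no other of the 10, values of both days stood apart without overlap, as for 46.4% of all genes. Vcam1 rose a further 1.45-fold and Megf10 1.32-fold. Cxcr4 fell 1.92-fold (log2 fold change -0.94 ± 0.14, edgeR adjusted p = 0.000222) and Cdh15 fell 1.65-fold (-0.72 ± 0.14, edgeR adjusted p = 0.00113). Ncam1 fell 1.14-fold (-0.19 ± 0.066, edgeR adjusted p = 0.0308), a call kept in 12 of 24 alternative settings. Between these days 6 of 8 Schwann cell, 5 of 5 erythroid, 5 of 8 pericyte and smooth muscle, 4 of 10 endothelial, 4 of 9 fibro-adipogenic, 3 of 6 skin epithelium and 3 of 5 tenocyte genes rose, and 6 of 8 muscle fibre and 5 of 7 leukocyte genes fell. The fibro-adipogenic genes Mfap5 and Ly6a fell, by log2 fold changes of -1.92 and -0.76, as did 1 pericyte and 1 Schwann cell gene, and Lyz2 rose by 1.18. The part of these lists in the members' changes was not tested. Without the 2 doubted libraries 8 of the 10 were called too, beside 51.1% of all genes: Spry1 was now called, at 0.65, and Ncam1 was not, at -0.08, while Sdc4 (1.81), Calcr (1.74), Cd34 (1.04), Cxcr4 (-0.79) and Cdh15 (-0.47) kept their calls.

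Partners of the 10 genes were read from lists made with earlier results of these data known, and their counts at day 0 stand beside 27.4% of all genes called there, 14.8% as higher and 12.6% as lower. Of 13 syndecans and heparan sulphate enzymes, 3 were higher and 1 lower in knockout at day 0, and Sdc1, another syndecan, was the lower one at 47.5 ± 5.25 against 129 ± 5.24 CPM (log2 fold change -1.44 ± 0.12, edgeR adjusted p = 0.00016). It was at 182 ± 5.33 in knockout and 133 ± 3.89 CPM in wild type at day 7, and its interaction of 1.90 ± 0.17 was called (edgeR adjusted p = 0.000508). Sdc3 was higher in knockout at day 0 (0.83 ± 0.19, edgeR adjusted p = 0.0107), and in wild type Sulf2, an enzyme that trims heparan sulphate, rose by 2.20 ± 0.11 at day 7 (edgeR adjusted p = 7.77e-07). Of 12 genes around the calcitonin receptor 3 were higher at day 0 in knockout and 0 lower, among them Col5a3, a collagen V chain and thus of its niche ligand (1.15 ± 0.25, edgeR adjusted p = 0.00947). In wild type at day 7 the collagen V genes Col5a2 and Col5a1 rose by 2.52 ± 0.13 and 2.36 ± 0.18 (edgeR adjusted p = 7.77e-07 and 5.72e-06), and Ramp1, a receptor accessory protein, fell by 1.62 ± 0.10 (edgeR adjusted p = 2.22e-06).

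Among 8 partners of VCAM1 and CXCR4, 2 were higher and 1 lower at day 0 in knockout. Itgb1, the beta chain of the integrin that binds VCAM1, was at 1630 ± 47.8 against 1080 ± 27.8 CPM (0.59 ± 0.083, edgeR adjusted p = 0.00121), and Ackr3, the atypical CXCL12 receptor, at 132 ± 0.658 against 212 ± 7.30 CPM (-0.68 ± 0.10, edgeR adjusted p = 0.00168). Ackr3 also fell in wild type by 1.53 ± 0.11 from day 0 to day 7 (edgeR adjusted p = 3.54e-06), while Cxcr4 rose. Of 12 other tetraspanins 1 was higher and 3 lower in knockout at day 0, where 27.4% of all genes were called: Cd63 was at 792 ± 26.1 against 1380 ± 11.4 CPM (-0.80 ± 0.10, edgeR adjusted p = 0.000901) and Tspan9 at 90.0 ± 3.45 against 39.9 ± 2.66 CPM (1.17 ± 0.14, edgeR adjusted p = 0.000608). Cd63 had an interaction of 0.89 ± 0.15 (edgeR adjusted p = 0.00622), beside 0.83 for Cd82. Of the 12, 2 had a called interaction above 0 and 1 below it, where 13.5% of all genes had one. The one below 0 was Tspan9 (-1.08 ± 0.20, edgeR adjusted p = 0.00872).

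Of 15 tested genes of FGF signalling, which Spry1 restrains, 1 was higher and 5 were lower in knockout at day 0. Among the lower were the receptor genes Fgfr3 and Fgfr2 at -1.67 each (edgeR adjusted p = 0.000817 and 0.0016). The transcription factor gene Etv4 was lower too, at -1.78 (edgeR adjusted p = 0.00273). Their levels were low in knockout and in wild type. Fgfr3 was at 5 ± 0.714 against 15.9 ± 1.58 CPM and Fgfr2 at 5.49 ± 1 against 17.5 ± 1.95 CPM. Etv4 was at 3.59 ± 0.127 against 12.3 ± 0.737 CPM. Of 9 other cadherins and catenins, 1 was higher and 1 lower: Ctnnd1, p120-catenin, was higher by 0.67 ± 0.075 (edgeR adjusted p = 0.000544) and Cdh11 lower by a log2 fold change of -0.48 ± 0.14 (edgeR adjusted p = 0.0267). Of 11 partners of NCAM1 and MEGF10, 4 were higher and 0 lower, with a median of 0.63 against 0.00 over all genes. They included Notch2 (1.20 ± 0.19, edgeR adjusted p = 0.002), Pear1, a relative of Megf10 (1.03 ± 0.19, edgeR adjusted p = 0.00392), and St8sia2, which adds polysialic acid to NCAM1 (0.87 ± 0.17, edgeR adjusted p = 0.00461). Of 16 other surface genes of satellite cells, 4 were higher and 3 lower at day 0, with a median of 0.12. Of these 16, 6 rose and 6 fell in wild type at day 7, where 47% of all genes changed, 25.8% rising and 21.2% falling.

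The genes whose pattern over the 12 libraries was most like each member were found by the root mean square difference of log2 CPM, each gene centred on its own mean, among 9064 genes with a mean of at least 10 CPM. Cdh15 was followed most closely by Rapsn (0.16), Lbx1 (0.17) and Gstp2 (0.18), and Cd82 by Chrnb1 (0.13) and Bcl7c (0.13). For Vcam1 they were Pde1c (0.20) and Ap3b2 (0.24), for Ncam1 Dis3l2 (0.096) and Ints4 (0.12), and for Megf10 Zfp451 (0.16) and Pcdh18 (0.17). Cd34 was closest to Lmo2 (0.19), Calcr to Pde10a (0.30), Cxcr4 to Actr2 (0.25) and Spry1 to Zcchc2 (0.26). The members' own SD over the 12 libraries ran from 0.22 for Ncam1 to 0.80 for Calcr on the log2 scale.

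The genes lie on 7 chromosomes in GRCm38 and are protein coding in GENCODE M21. Calcr lies on chromosome 6 from 3685680 to 3764714 (minus strand), Cxcr4 on 1 from 128588199 to 128592293 (minus), Cd34 on 1 from 194938819 to 194961279 (plus), Sdc4 on 2 from 164424247 to 164443887 (minus), and Cd82 on 2 from 93419111 to 93463140 (minus). Spry1 lies on 3 from 37639947 to 37644598 (plus), Vcam1 on 3 from 116109949 to 116129688 (minus), Cdh15 on 8 from 122847966 to 122867397 (plus), Ncam1 on 9 from 49502136 to 49798925 (minus) and Megf10 on 18 from 57133090 to 57297467 (plus). Exons of Cd34, Spry1, Vcam1 and Ncam1 overlap a gene model on the opposite strand. Whether the counting used strand is not given in the sources used here, so reads of the overlapping partners cannot be told apart there.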

How the data were processed

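The authors deposited a table of estimated counts per gene, a table of TPM and a table of regularised log values on the log2 scale corrected for a batch that the labels do not name, each with 1 column per library. Per the submitters' processing notes, kallisto 0.46.1 and the builds mm10 and GRCm38.p6 were used. Libraries were made by SmartSeq v4 and Nextera XT and read as 76-base single ends, per the labels' protocols.

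Estimated counts were rounded and filtered with filterByExpr over the 6 groups, which left 15890 of 30154 genes, and scaled by TMM (factors 0.915 to 1.09). The robust quasi-likelihood test of edgeR 4.0.16 in R 4.3.3 was fitted on all 12 libraries, with Benjamini-Hochberg adjustment over all genes tested and a call at adjusted p under 0.05. SE is the log2 fold change over the square root of F, and intervals are at 95%. Alternatives used DESeq2 1.42.0 and limma 3.58.1 (on log2 TPM plus 1 or 0.1, and on the log2 values), other filters and scalings, a replicate block and left-out libraries. The fits were tested on simulated counts, and figures drawn with matplotlib 3.10.9. In the main results TPM serve to compare genes with each other.

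All 10 members are named. The 3 genes nearest to each member were taken by the rule given with them, passing over unnamed gene models, and the text gives part of them, since some genes are not reported here. From each partner list up to 3 called genes with the smallest adjusted p in 3 comparisons (knockout at day 0, wild type at day 7, the interaction) could be named, and part of them are. The members and lists were chosen with earlier results of these data known.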

Additional observations from a re-analysis of the deposited data

Results flagged for a closer look

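The change from day 0 to day 7 differed between knockout and wild type, by the test of that difference itself (edgeR interaction, n = 2 libraries a group), for 5 of the 10 genes and for 13.5% of all genes tested. The difference on the log2 scale, knockout minus wild type, was 1.28 for Cdh15, 1.20 for Vcam1 and 0.83 for Cd82, which were low in knockout at day 0 and near the wild-type level at day 7. It was -0.72 for Ncam1, which rose in wild type and was at 269 and 254 CPM on the 2 days in knockout. It was -0.72 for Megf10, which rose in both genotypes, less in knockout.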

How the results depend on the processing

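Of 1880 values of single genes under the alternatives, 1723 kept their direction and side of the threshold, 59 lost a call, 70 gained one and 28 changed sign, and no called result changed sign. With a log2 fold change of at least 1 also required, the called members (with the share of all genes called in brackets) were 2 at day 0 (9.41%), 0 at day 7 (0.56%), 3 in wild type (23.1%) and 4 in knockout (23.3%) from day 0 to day 7, 3 from day 0 to day 21 (11%), 2 from day 7 to day 21 (20.3%) and 2 in the interaction (6.89%). Between genotypes at day 7, in place of 1 (1.76%), DESeq2 called 4 (4.95%), the fit on that day's libraries 3 (2.88%), limma on log2 TPM 0 in each of its 3 versions (0.461% to 0.989%), limma on the authors' log2 values 2 (3.79%), the fit without the 2 day 21 libraries that go against their labels 5 (6.9%), and the fit on days 0 and 7, chosen after seeing the data, 5 (7.46%). By label at day 21, in place of 0 (0.0126%), DESeq2 called 6 (2.96%), no filter 2 (0.262%), the batch-corrected values 2 (0.808%) and the fit without those 2 libraries 6 (7.29%). In the interaction limma on log2 TPM with no filter called 3 (5%). The cause of these differences was not tested.

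Leaving out 1 library at a time, the called members ranged from 4 to 7 at day 0 (10.1% to 31.4% of all genes), 0 to 3 at day 7 (0.0909% to 3.76%), 0 to 5 at day 21 (0% to 5.24%), 6 to 6 in wild type (31.4% to 48.4%) and 6 to 7 in knockout (33.4% to 48.4%) from day 0 to day 7, 6 to 8 from day 0 to day 21 (35.1% to 44.7%), 7 to 8 from day 7 to day 21 (48.7% to 54.6%) and 3 to 5 in the interaction (3.52% to 17.3%). Signs changed in 9 of 80 results, none of them called. For Vcam1 between genotypes at day 7 limma on log2 TPM gave -0.005 in its 3 versions, and leaving out 1 library -0.055 to 0.134. For Cd82 there limma gave -0.03, no filter 0, and leaving out 1 library -0.087 to 0.101. Spry1 by label at day 21 ranged from -1.58 to 0.635, the higher end without replicate 2 labelled wild type. Spry1 from day 0 to day 7 in wild type was 0.175 or 0.177 with limma on log2 TPM, and Ncam1 in knockout 0.03. Calcr in knockout from day 0 to day 7 ranged from -0.609 to 0.101, and its interaction from -0.224 to 0.486. Spry1 from day 0 to day 21 ranged from -0.744 to 0.231 and was 0.512 without the 2 doubted libraries. From day 7 to day 21 it ranged from -0.627 to 0.371, and was -0.29 or -0.295 with limma on log2 TPM and -0.111 on the batch-corrected values. Limma on log2 TPM moved the median of all genes from 0.06 to 0.244 (pseudocount 1) or 0.282 (0.1) in the wild-type change to day 7.

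Replicate numbers did not pair the samples: over 15 pairs of groups the correlation of same-numbered deviations ran from -0.143 to 0.07. With the replicate number as a block the called genes were 7 at day 0, 1 at day 7 and 0 at day 21 between genotypes, 6 in wild type and 6 in knockout to day 7, 7 and 8 to day 21 from days 0 and 7, and 5 in the interaction. With 2 libraries a group the smallest difference called among the 10 genes at day 0 was 0.36 on the log2 scale, for Ncam1.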

Other observations

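Estimated counts divided by TPM follow the length of the transcripts that the reads were assigned to, so a shift of this ratio within a gene, scaled between libraries, follows its mix of isoforms. Sdc4 had the widest spread of the 10 genes, 21.9% between its extreme libraries. It was at the same relative length, 103.3, in all 8 libraries of days 0 and 7, and at day 21 at 90.3 and 103.3 in replicates 1 and 2 labelled wild type and 84.7 and 98.0 in replicates 1 and 2 labelled knockout. Megf10 spread over 18.9%, Ncam1 over 18.1% and Cxcr4 over 17.2%, while Cdh15 and Vcam1 did not vary. The spread of Sdc4 stood at the 63.6th percentile of 11161 genes, so such a spread was common in these libraries.

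Of 8 satellite cell markers outside the set, 3 rose and 0 fell in wild type from day 0 to day 7. Itga7 rose by 0.96 on the log2 scale, Fgfr4 by 0.66 and Myf5 by 1.37 ± 0.15 (edgeR adjusted p = 5.7e-05), while Pax7 (0.32) and Chodl (0.06) were among the 5 not called. Myf5 was also higher at day 7 in knockout, where its level went from 18.7 ± 0.405 to 90.3 ± 3.82 CPM (SD, n = 2). Its interaction of 0.90 ± 0.21 was called (edgeR adjusted p = 0.0234). Top2a, a gene of dividing cells, measured 7.02 ± 0.413 CPM in wild type against 2.44 ± 0.141 CPM in knockout on day 0, and 123 ± 0.849 against 116 ± 3.14 CPM on day 7.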
